A study of Mus musculus with 10 samples.

Results

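Dach1 encodes DACH1 (dachshund family transcription factor 1), a nuclear protein with a DNA-binding dachshund domain. In the fly, dachshund works in a network with the eyes absent and sine oculis proteins, and Eya genes are among their mouse relatives. In mammalian vessels, DACH1 is best known in the coronary endothelium, where it supports the growth of arteries and the movement of endothelial cells (ECs) against blood flow. The study took up Dach1 with its level in these libraries known, so its pattern over vessel types is a description and not independent evidence. In the deposited tables Dach1 (ENSMUSG00000055639) is 1 of 26504 genes with a count, and it is a protein-coding gene on the minus strand of mm10 at chr14:97786853-98169765, with a span of 382.9 kb. The annotation places 2 other genes inside that span, the processed pseudogene Gm16331 on the plus strand at chr14:98118509-98119006 and the snRNA gene Gm25831 on the minus strand at chr14:97967829-97967991.

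The study sequenced single ECs sorted from the femur and tibia of C57BL/6 mice of the genotype Cdh5-mTnG, a reporter that marks the membrane of ECs red and their nuclei green. There were 2 libraries for each of 5 groups, namely juvenile mice of 3 weeks (male and female), adult mice of 12 weeks, aged mice of 75 weeks, and 12-week-old mice given PTH or alendronate (all female). PTH is a fragment of parathyroid hormone that stimulates bone formation, and alendronate is a bisphosphonate that inhibits osteoclasts. All groups carried the reporter and went through the same depletion of lineage-positive blood cells and sort for both fluorescent proteins, and PBS was the control injection of the drug treatments in the study's methods, although neither they nor the labels say whether the adult libraries came from injected mice. Libraries were made from pooled mice, and the study states that the experiment was done once for each group. The 2 libraries of a group may therefore share mice. The p-values measure the spread between 2 libraries of a group, which may be technical.

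Counts are unique molecular identifiers (UMIs), 1 per captured transcript. The 10 libraries held 2193 to 7805 barcodes and 10653583 to 28419323 UMIs, and 46283 of 47466 barcodes passed the filter of 500 to 6000 genes and under 25% mitochondrial UMIs. After 2588 cells of other kinds were removed, 43695 ECs remained, with a median of 3045 to 4875 UMIs per cell in a library. PTH replicate 1 stood apart by its size, with 2028 ECs against 7337 in PTH replicate 2. The aged libraries listed 22735 and 22736 genes with a count, and the others 19039 to 20912. The series text names more than 1 version of the capture kit without saying which library used which, so age and the making of the aged libraries cannot be told apart. Levels by type and tests of Dach1 between types are given with and without both aged libraries. Pooled shares of cells, gene lists between types and tests of cells with a Dach1 UMI were not repeated without both. Pairs with an aged library shared 3 or 4 cell barcodes, and the other pairs 10 to 88. Whether this comes from the version of the kit was not tested. Poisson and Clopper-Pearson intervals cover counting error only, while those of log2 differences also cover the spread between libraries.

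ECs fell into 6 types, named from markers and clustered without Dach1 and without the listed genes that are no markers. In the sinusoidal bmEC-like cells of the marrow, 7 of 7 markers tested were highest of all types, led by the scavenger receptor Stab2 at 1787 counts per 1000000 UMIs (CPM) against at most 546 elsewhere. The arterial aEC-like cells were highest for 5 of 5, with the gap junction gene Gja4 at 1295 against at most 121 CPM, and the metaphyseal mpEC-like cells for 4 of 5, the exception being Apln. Cells with markers of type R (rECs), the post-arterial capillaries that the study describes, came as 2 types. Capillary rEC-like cells were highest for 4 of 4 markers, among them Timp4 (1223 against at most 30.3 CPM) and Aqp7 (546 against at most 31.7 CPM), and Vwf rEC-like cells for 3 of 3, with Vwf at 997 against at most 89.0 CPM. Proliferating pEC-like cells were highest for 4 of 4. C1qtnf9, a marker of the capillary rEC-like type at 1116 CPM, still stood at 515 CPM in its next type, the Vwf one. The study tells type R by Cav1 and Emcn without Flt4. The Vwf type had Cav1 at 1165, Emcn at 1213 and Flt4 at 59.8 CPM. In aEC-like cells these genes were at 893, 718 and 83.8 CPM, so low Flt4 with Cav1 and Emcn was not particular to rEC-like cells. The Vwf type's level of the vein regulator gene Nr2f2, 325 CPM, was above the 77.7 CPM of the capillary type. Its level of the arterial marker Efnb2, 39.9 CPM, was below the 135 CPM there. Whether the Vwf type is post-arterial was not tested. A further 51 cells carried lymphatic markers and entered no type.

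Dach1 was sparse in the bone endothelium and concentrated in the rEC-like types. Of 1935 Dach1 UMIs in all barcodes, 1599 lay in ECs, in 1218 cells. Capillary rEC-like cells made up 6.62% of ECs and held 57.2% of the Dach1 UMIs in ECs, while bmEC-like cells made up 46.2% of ECs and held 4.38%. Vwf rEC-like cells (4.31% of ECs) held 11.8%, aEC-like cells (16.5%) held 18.3% and mpEC-like cells (24.8%) held 7.95%. These totals lean on the aged libraries, which had the most Dach1, and the part held by capillary rEC-like cells differed between groups, at 65.6% in aged, 58.2% in alendronate, 53.9% in adult, 32.8% in PTH and 23.8% in juvenile mice (means of 2 libraries). In juvenile mice mpEC-like cells held more, at 32.8%.

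The levels fell into a ladder over the 10 libraries. Dach1 ranged in capillary rEC-like cells from 58.9 CPM through a median of 84.9 to 264 CPM (mean 117 ± 74.2, SD, n = 10). In Vwf rEC-like cells it ranged from 16.3 through 21.5 to 59.4 CPM (27.3 ± 14.6), and in aEC-like cells from 2.79 through 8.55 to 22.3 CPM (9.90 ± 6.23). The aged libraries were the highest in each of these 3 types. In mpEC-like cells the level ran from 0.304 through 2.32 to 10.3 CPM (3.18 ± 2.81) and in bmEC-like cells from 0.271 through 0.976 to 1.77 CPM (0.942 ± 0.434). In pEC-like cells 5 Dach1 UMIs lay in 3 of 683 cells, and the 9 libraries with enough such cells gave 0.337 ± 0.675 CPM. The order capillary rEC-like, Vwf rEC-like, aEC-like, mpEC-like, bmEC-like held in 9 of 10 libraries, and in PTH replicate 1, which had 1 Dach1 UMI in its mpEC-like cells, bmEC-like stood above mpEC-like. Without both aged libraries the means were 82.8 ± 19.3, 20.9 ± 5.58, 7.22 ± 2.87, 2.06 ± 1.02 and 0.892 ± 0.470 CPM (n = 8).

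**Figure D1:**
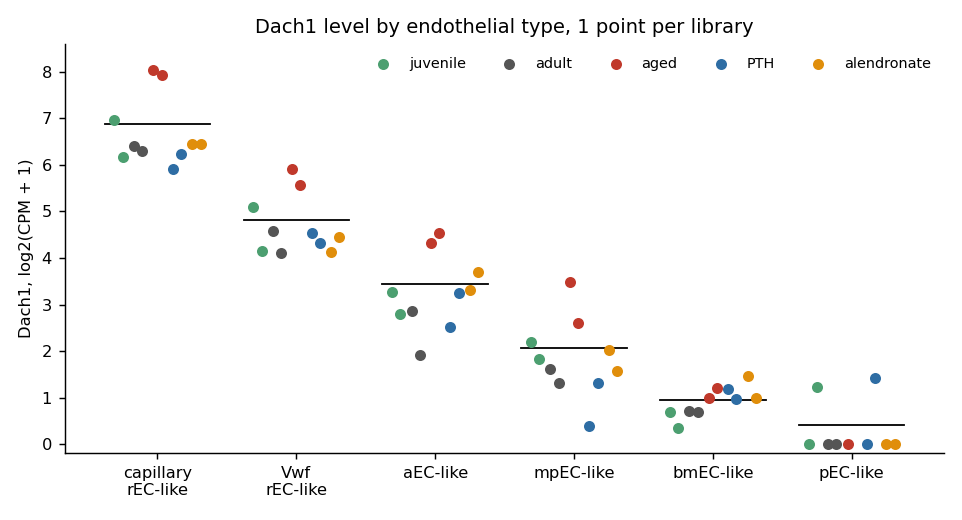
Dach1 level (log2 of CPM + 1) in each endothelial type, 1 point per library coloured by group, with a line at the mean of each type. Capillary rEC-like points (58.9 to 264 CPM) lie above all others of their own library, and the aged libraries are the highest points in both rEC-like types, in aEC-like and among mpEC-like cells.

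Neighbouring types in this order differed beyond the spread of the libraries, down to bmEC-like cells. The tests used edgeR's quasi-likelihood method on sums per type and library with the library as a block, over 11653 genes, with p adjusted over all of them within each of 15 pairs of types. Dach1 was 4.21-fold higher in capillary rEC-like than in Vwf rEC-like cells (log2 difference 2.07, SE 0.15, edgeR adjusted p = 6.1e-18), a pair in which 33.4% of all genes tested differed. The step down from Vwf rEC-like to aEC-like cells was 1.42 (SE 0.18, edgeR adjusted p = 8.0e-10, against 39.7% of genes), and aEC-like above mpEC-like cells by 1.73 (SE 0.18, edgeR adjusted p = 2.1e-12, 49% of genes). The step from bmEC-like to mpEC-like cells was 1.43 (SE 0.24, edgeR adjusted p = 4.9e-07, 57.8% of genes). The whole ladder, from bmEC-like to capillary rEC-like cells, was 6.65 on the log2 scale or 100.2-fold (SE 0.17, edgeR adjusted p = 1.1e-40, 60.5% of genes). The level in bmEC-like cells (0.861 CPM over all libraries pooled) was near that of the lymphoid cells removed before the tests (0.822 CPM, 2 Dach1 UMIs in 512 cells), and lymphoid cells were the lowest of the removed kinds. Removed mesenchymal cells stood at 2.46, megakaryocytes at 3.73 and erythroid cells at 4.91 CPM (6, 2 and 30 Dach1 UMIs), mural cells at 10.5 (3 UMIs in 54 cells) and other haematopoietic cells, lymphoid ones among them, at 16.5 CPM. The pooled levels were 2.88 CPM in mpEC-like and 10.9 CPM in aEC-like cells, so none of the bmEC-like, mpEC-like and aEC-like levels was set apart from the levels in other cells. A cluster of S100a9-led blood cells at 38 CPM stood above the pooled Vwf rEC-like level of 26 CPM as well. Of its 112 cells, however, 54 and 51 came from the aged libraries, where Vwf rEC-like cells stood at 59.4 and 46.2 CPM. The pooled level in capillary rEC-like cells was 134 CPM. Many genes separate these types, so a call by itself says little and the size is what is described here.

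Against aEC-like cells, their upstream neighbours in the vessel tree, capillary rEC-like cells had 11.3-fold more Dach1 (log2 difference 3.49, SE 0.14, edgeR adjusted p = 2.7e-30, 34% of genes). Only the bottom of the order was unresolved. bmEC-like and pEC-like cells differed by 0.79 (95% interval -1.08 to 2.66, edgeR adjusted p = 0.52, 50.4% of genes), and mpEC-like cells were above pEC-like ones by 2.22 (edgeR adjusted p = 0.028, 33.2% of genes), a call that was lost without both aged libraries (1.83, edgeR adjusted p = 0.088) and without adult replicate 1 (2.11), aged replicate 1 (1.82) or juvenile replicate 1 (1.85). Without both aged libraries the 4 steps of the ladder were 2.03, 1.38, 1.89 and 1.12, all past the threshold.

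The share of cells with a Dach1 UMI gave the same order. After each cell was thinned to 1000 UMIs, which left out 329 of 2888 capillary rEC-like cells, 308 of the remaining 2559 had one (12.0%, 95% Clopper-Pearson interval 10.8 to 13.4%, and 22.2% unthinned). The thinned share was 3.02% in Vwf rEC-like (55 of 1819), 0.887% in aEC-like (61 of 6880), 0.295% in mpEC-like (30 of 10176) and 0.117% in bmEC-like cells (23 of 19670). All removed haematopoietic cells, first planned as the background of free RNA, had a Dach1 UMI in 13 of 1282 cells after thinning (1.01%). That is above the share in aEC-like cells and in each type below it. Blood cells among them hold Dach1, so lymphoid cells were used instead, a choice made after the values were seen. The lymphoid cells had a Dach1 UMI in 0 of 502 cells after thinning, which allows a share of up to 0.598%. This limit is 3 counts of the total and one-sided, lower than the upper end of a two-sided Clopper-Pearson interval would be. The lymphoid cells came from 9 libraries, with 5 cells from PTH replicate 2 and none from PTH replicate 1, so PTH has practically no such background. The pooled shares of mpEC-like cells (95% interval 0.199 to 0.421%) and bmEC-like cells (0.0741 to 0.175%) lie under that limit. These intervals pool cells of all libraries and leave out the spread between them. The group means of the mpEC-like share ran from 0.0208% in PTH to 1.03% in aged libraries. Unthinned, 179 capillary rEC-like cells had 2 or more Dach1 UMIs (up to 7) and 461 had 1, whereas in bmEC-like cells 68 had 1 and 1 cell had more.

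Arterial cells were not uniform. At a finer clustering, chosen after its values were seen and given without a test, 810 aEC-like cells led by Tmem100, Prune2, Clu and the alkaline phosphatase gene Alpl held 146 of the type's 293 Dach1 UMIs, at 50.1 CPM. The 4138 cells led by Gja4, Cxcl12 and Igfbp3 stood at 6.47 CPM and the 1824 cells led by Gkn3, Mgp and the arterial connexin Gja5 at 4.57 CPM, and a further set of 409 cells led by Gm10800 held 6 Dach1 UMIs. The Tmem100-led cells were the highest of the 4 sets in adult (27.8 CPM), PTH (28.0 CPM), alendronate (38.1 CPM) and aged mice (101 CPM), each over both libraries pooled. Juvenile mice had 3 Dach1 UMIs in 36 such cells, and juvenile replicate 2 had 0 in 21 of them against 7.45 CPM in its Gja4-led cells, so no order is given for that age.

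Age went with the largest differences of Dach1 within a type. In capillary rEC-like cells the adult libraries had 83.7 and 77.6 CPM (40 and 32 UMIs) and the aged libraries 264 and 244 CPM (275 and 241 UMIs). Both aged libraries lay above both adult ones, with Poisson intervals of 214 to 297 CPM across them against 53.1 to 114 CPM. The difference was 3.00-fold (log2 difference 1.59, 95% interval 1.25 to 1.92, edgeR adjusted p = 1.1e-12), in a comparison in which 46% of 8446 genes differed.

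Dach1 in aEC-like, mpEC-like and Vwf rEC-like cells went the same way. The pooled aEC-like and mpEC-like levels were, as said above, not set apart from those of removed cells. In aEC-like cells the level was 6.28 and 2.79 CPM in adult and 18.9 and 22.3 CPM in aged libraries, a rise of 2.05 on the log2 scale (SE 0.32, edgeR adjusted p = 2.2e-06, 58.6% of 11390 genes). In mpEC-like cells it was 2.06 and 1.49 against 10.3 and 5.07 CPM, a rise of 1.87 (SE 0.44, edgeR adjusted p = 3.4e-04, 65% of 12101 genes), and without aged replicate 1 the value was 1.28 and no longer passed. In Vwf rEC-like cells it was 22.8 and 16.3 against 59.4 and 46.2 CPM, a rise of 1.34 (SE 0.38, edgeR adjusted p = 0.0074, 32% of 8472 genes), which did not pass without adult replicate 2 (1.14) or aged replicate 1 (1.15). The groups did not overlap in any of these types. In bmEC-like cells, at 0.650 and 0.602 against 0.988 and 1.30 CPM on 4 to 7 UMIs a library, the difference was 0.45 (95% interval -0.79 to 1.69, edgeR adjusted p = 0.54, 67% of 13753 genes).

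Genomic length went with the aged libraries. In capillary rEC-like cells, the median log2 difference between aged and adult was -0.65 over the 1057 genes under 5 kb, 0.29 over genes of 20 to 100 kb and 0.78 over the 151 genes above 300 kb, the class of Dach1. Of those 151 genes, 25 had a larger difference than Dach1. In aEC-like cells the medians ran from -0.44 to 0.71, and 10 of 213 genes above 300 kb exceeded Dach1. With each library offset for the median of genes of like length, Dach1 was still higher in aged capillary rEC-like (0.85, SE 0.18, edgeR adjusted p = 8.2e-05), aEC-like (1.46, edgeR adjusted p = 4.0e-04) and mpEC-like cells (1.24, edgeR adjusted p = 0.018), while the Vwf rEC-like value of 0.75 did not pass (edgeR adjusted p = 0.18) and the bmEC-like value was -0.18. The part that the making of these libraries had in the rest was not tested.

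**Figure D2:**
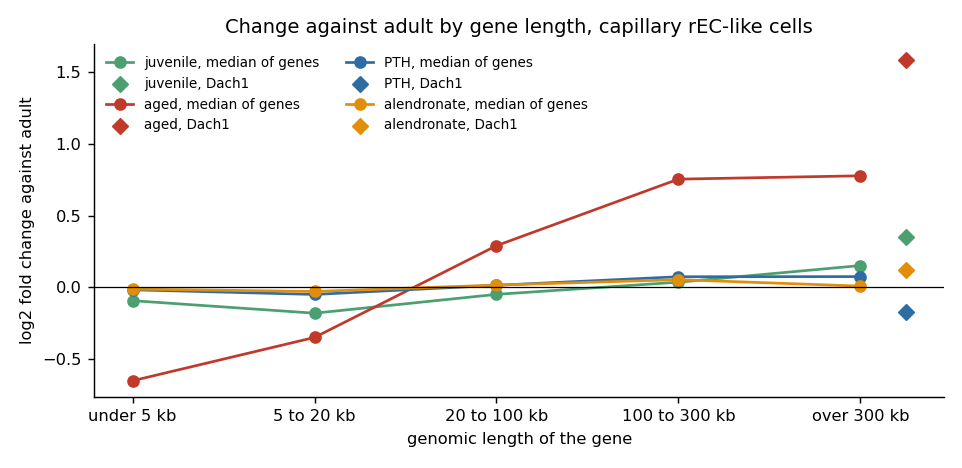
Median log2 difference from adult over the genes of each class of genomic length in capillary rEC-like cells, 1 line per group, with diamonds for Dach1. In aged libraries the medians climb from -0.65 under 5 kb to 0.78 above 300 kb, and the Dach1 diamond at 1.59 lies above that line.

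Levels of blood cell markers are given beside these differences. The share of all genes that lay without overlap was not taken, so the counts of markers below do not set them apart from other genes. The summed level of 10 haematopoietic markers in aEC-like cells was 200 to 257 CPM in adult and 2178 to 2185 CPM in aged libraries. Of the 10, 5 were higher and 3 lower in aged aEC-like cells without overlap, and Cd74, an antigen presentation gene, made up most of the sum at 2071 against 182 CPM. Without integration, an aEC-like cluster had Cd74 among its 10 leading genes, beside the further antigen presentation genes H2-Eb1, H2-Aa and H2-Ab1. Removing cells by these markers can therefore also take ECs that make Cd74 themselves. How many cells were removed for Cd74 alone was not counted. In capillary rEC-like cells the sum was 66.9 to 67.9 against 165 to 200 CPM, with 4 markers higher and 3 lower, the neutrophil genes S100a8 and S100a9 among the higher, the granule genes Elane, Mpo and Prtn3 the lower, and Cd79a and Csf1r at 0 in both. With every cell removed that had a UMI of any of the 10, which took 10.7% of adult and 39.3% of aged capillary rEC-like cells, the difference in Dach1 was 1.68 (edgeR adjusted p = 5.4e-10). In aEC-like cells it was then 2.71 (edgeR adjusted p = 1.8e-06) and in mpEC-like cells 2.40 (edgeR adjusted p = 5.2e-04). That step took 73.4% of aged and 22.9% of adult aEC-like cells, and 68.5% and 18.3% of mpEC-like cells, so these values rest on the fewer aged cells left. The Vwf rEC-like value of 1.20 missed the threshold (edgeR adjusted p = 0.059), and the bmEC-like value was 1.85 and missed it too (edgeR adjusted p = 0.059). Erythroid markers are given in the same way, with the same limit on their counts. Their sum was 347 and 4497 CPM in aged against 180 to 187 CPM in adult Vwf rEC-like cells, 334 to 350 against 169 to 258 CPM in aEC-like cells, and 407 to 522 against 218 to 443 CPM in capillary rEC-like cells. Of 6 such markers, 2 were higher and 1 lower without overlap in each rEC-like type, and 3 were higher in aEC-like (1 lower) and in mpEC-like cells (0 lower). In bmEC-like cells 1 was higher and 3 were lower. The globin gene Hbb-bs was at 231 and 2322 CPM in aged against 59.9 to 97.8 CPM in adult Vwf rEC-like cells, and the part of erythroid RNA in these differences was not tested. Of the 6 mesenchymal markers, Kitl, a stem cell factor that ECs also make, gave most of a sum of 441 to 451 CPM in adult and 1182 to 1226 CPM in aged capillary rEC-like cells, where Col1a1 and Ibsp were at 0 in both. Without overlap, 2 were higher and 1 lower in aged capillary rEC-like, Vwf rEC-like and aEC-like cells. In mpEC-like cells 3 were higher and 2 lower, and in bmEC-like cells 2 and 2. Of 4 megakaryocyte markers, 0 were higher in aged libraries. In aEC-like and bmEC-like cells 4 were lower without overlap, and in mpEC-like and both rEC-like types 3 were.

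The juvenile libraries give the level of Dach1 at an age when type R capillaries are few. Capillary rEC-like cells were 0.967% of juvenile ECs against 4.59% of adult ECs, 77 cells in all, and they had Dach1 at 125 and 70.6 CPM on 14 and 5 UMIs. These values bracket the adult ones of 83.7 and 77.6 CPM. The difference from adult was 0.35 (95% interval -0.40 to 1.1, edgeR adjusted p = 0.76, 2.77% of genes differed), and without juvenile replicate 1 it was -0.33. The depth behind these few cells limits what could be seen, and the lower juvenile library alone had a Poisson interval of 22.9 to 165 CPM. Juvenile values also did not pass in Vwf rEC-like (0.17, 2.08% of genes), aEC-like (0.66, 15.1% of genes), mpEC-like (0.80, 26.7% of genes) and bmEC-like cells (-0.47, 38.6% of genes).

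The drugs gave 1 call in a named type, in arterial cells. In aEC-like cells the alendronate libraries had Dach1 at 8.98 and 12.0 CPM, above the adult values of 6.28 and 2.79 CPM, a rise of 1.20 on the log2 scale (SE 0.36, edgeR adjusted p = 0.034, where 7.77% of genes differed). It did not pass without adult replicate 2 (0.76) or alendronate replicate 2 (0.98), or in cells without a haematopoietic marker UMI (1.25, edgeR adjusted p = 0.074). The summed haematopoietic markers were 271 to 284 CPM there against 200 to 257 CPM in adult libraries, 6 of 10 being higher without overlap. Erythroid markers summed to 326 and 1970 CPM in alendronate libraries against 169 to 258 CPM in adult ones, 3 of 6 being higher and 1 lower without overlap, with the globin gene Hbb-bs at 512 against 104 CPM, Hba-a1 at 295 against 53.3 CPM and Hba-a2 at 235 against 23.7 CPM. Megakaryocyte markers summed to 37.7 to 45.1 against 25.5 to 35.8 CPM, 3 of 4 being higher and 1 lower. The share of all genes that lay without overlap in this comparison was not taken. These counts therefore do not set the markers apart from other genes. The part of erythroid and megakaryocyte RNA in the result was not tested.

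Capillary rEC-like cells did not differ with either drug beyond the spread of the libraries. Alendronate gave 86.2 and 86.4 CPM on 119 Dach1 UMIs each, a difference of 0.12 from adult (95% interval -0.28 to 0.51, edgeR adjusted p = 0.88, 2.6% of genes). PTH gave 58.9 and 74.5 CPM, a difference of -0.18 (95% interval -0.67 to 0.31, edgeR adjusted p = 0.84, 2.92% of genes). Both PTH libraries were below both adult ones, and both alendronate libraries above. In Vwf rEC-like cells the differences were -0.04 with alendronate (0.992% of genes) and 0.00 with PTH (0.567% of genes), and in bmEC-like cells 1.15 with alendronate (edgeR adjusted p = 0.094, 19.7% of genes). With PTH the values in aEC-like (0.66, 7.32% of genes), bmEC-like (0.71, 10.8% of genes) and mpEC-like cells (-0.63, 14.4% of genes) did not pass, nor did the alendronate value in mpEC-like cells (0.52, 11.5% of genes).

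**Figure D3:**
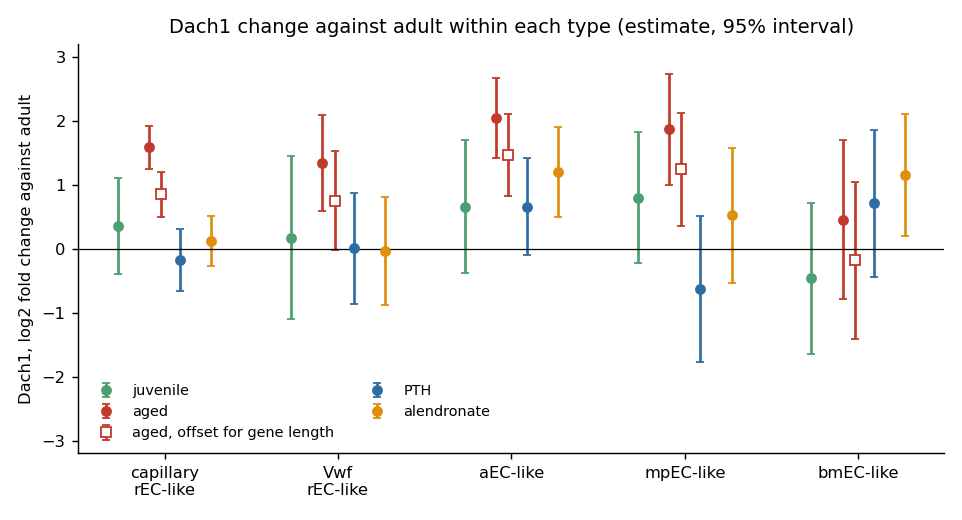
Log2 difference of Dach1 from adult (edgeR, with 95% intervals) in each type for the juvenile, aged, PTH and alendronate groups, with open squares for aged after the offset for genomic length. Aged intervals lie above 0 in capillary rEC-like, Vwf rEC-like, aEC-like and mpEC-like cells, and of the others the alendronate aEC-like value of 1.20 is the call.

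Whether a group's effect differed between capillary rEC-like cells and another type was tested in 16 interactions over 13457 genes, and 0 for Dach1 passed in edgeR at an adjusted p under 0.05. Over all genes, the juvenile, aged, PTH and alendronate interactions passed for 1.4, 7.55, 1.26 and 0.869% against bmEC-like, 1.52, 3.3, 1.37 and 0.966% against mpEC-like, 0.624, 2.93, 0.832 and 0.81% against aEC-like, and 0.32, 1.14, 0.149 and 0.119% against Vwf rEC-like cells. At an unadjusted p under 0.05 there was 1, alendronate in capillary rEC-like against aEC-like cells (-1.04, SE 0.41, edgeR adjusted p = 0.44). A rise with alendronate in arterial cells and none in capillary cells is therefore not shown to be a difference between them.

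In the sorted endothelium as a whole, where numbers of each type and level per cell act together, the groups stood further apart. Dach1 was at 4.20 and 3.25 CPM in adult, 33.3 and 29.7 in aged, 9.93 and 10.5 in alendronate, 3.85 and 6.01 in PTH and 2.71 and 1.65 CPM in juvenile libraries. Aged and alendronate libraries lay above and juvenile ones below both adult libraries, while PTH overlapped with adult. Against adult the log2 difference was 2.72 in aged (SE 0.16, edgeR adjusted p = 3.5e-13, 73.8% of 15309 genes), 1.46 in alendronate (SE 0.17, edgeR adjusted p = 9.8e-07, 28% of genes) and -0.74 in juvenile mice (SE 0.24, edgeR adjusted p = 0.016, 43.1% of genes), and PTH at 0.46 missed the threshold (edgeR adjusted p = 0.088, 29.6% of genes). With the offset for genomic length the aged value was 2.12 (edgeR adjusted p = 4.6e-11). The juvenile call was lost without adult replicate 1 (-0.54) or juvenile replicate 2 (-0.44). The PTH value was 0.63 and past the threshold without PTH replicate 1 and -0.01 without PTH replicate 2.

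The make-up of the endothelium went along with these differences. Capillary rEC-like cells were 4.59% of adult, 13.7% of aged, 11.5% of alendronate, 3.48% of PTH and 0.967% of juvenile ECs. The PTH mean stands for 1.93 and 5.04% in its libraries, on either side of the adult 4.79 and 4.38%. With each library's types weighted by their mean share of adult UMIs, Dach1 was 3.73 CPM in adult, 12.5 ± 0.712 in aged, 5.20 ± 0.171 in alendronate, 3.76 ± 0.658 in PTH and 4.81 ± 1.70 CPM in juvenile mice (SD, n = 2). The log2 difference from adult then came to 1.75 in aged and 0.48 in alendronate, down from 3.08 and 1.45 of the same CPM without weights, and turned from -0.77 to 0.37 in juvenile mice. These weighted values carry no test.

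**Figure D4:**
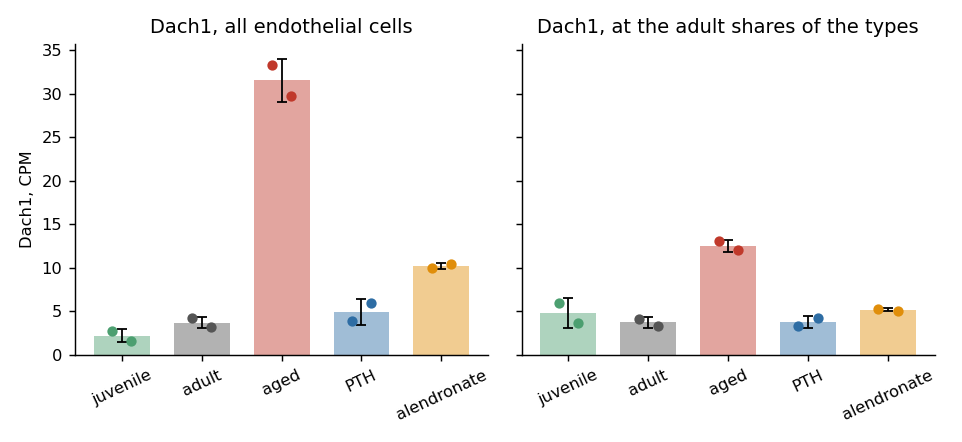
Dach1 level (CPM) in all ECs of each group and in the same libraries weighted to adult shares of the types, with bars for the mean, error bars for the SD and points for the 2 libraries. Alendronate falls from 10.2 to 5.20 CPM and aged from 31.5 to 12.5 CPM under the adult shares, while adult is at 3.72 and 3.73 CPM.

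The share of capillary rEC-like cells with a Dach1 UMI, thinned to 1000 UMIs, was 7.17 and 7.39% in adult and 24.3 and 26.3% in aged libraries. Alendronate (8.59 and 8.98%) stood just above adult and PTH (5.13 and 6.83%) just below it, and the juvenile libraries spread from 3.45 to 10.6%. An exact two-sided permutation test over 2 against 2 libraries cannot go below p = 0.33, which is what aged, alendronate and PTH gave.

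Relatives of Dach1 in the network of the Eya genes and the sine oculis relatives were mostly near 0. Of 13 other members, 5 were measurable between types. In the comparison of capillary with Vwf rEC-like cells 14.6% of all genes were higher and 18.8% lower. Eya1, a transcriptional partner of the sine oculis family, was at 5.45 ± 5.74 CPM in capillary rEC-like and 1.23 ± 2.64 CPM in Vwf rEC-like cells (SD, n = 10) and at most 0.0351 CPM elsewhere, so it could pass the filter only through the type in which it is high, and it is given as levels without a test. Skil, a Ski family gene related to Dach1 by its core domain, was higher in the capillary type by 0.59 (SE 0.11, edgeR adjusted p = 2.0e-05). Dach2, the closest relative of Dach1, was at 0.0726 CPM in capillary and 1.75 CPM in Vwf rEC-like cells, and it was below the filter of the test. Ski ran from 70.5 to 89.0 CPM and Eya3 from 14.3 to 17.9 CPM over the types.

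Genes of arteries and of capillary lipid handling changed over the same step from Vwf to capillary rEC-like cells. Of 17 arterial genes tested, 13 were higher and 1 lower in the capillary type (median 0.98, against -0.04 over all genes), such as the Notch target Hey1 (3.45), the connexin gene Gja5 (2.62) and the ligand genes Efnb2 (1.81) and Dll4 (1.53), while the Notch ligand Dll1 was lower (-1.45). Of 8 genes of caveolae and lipid handling, 7 were higher (median 1.41), led by the lipase gene Lpl (5.14) and its capillary anchor Gpihbp1 (2.44), and Plvap, which forms the diaphragms of fenestrae, was lower (-3.72). Of 8 venous and sinusoidal genes, 5 were lower, among them the vein regulator Nr2f2 (-2.49), and 1 was higher. Of 7 genes of chemokines and flow, 3 were higher, the chemokine gene Cxcl12 (1.27) and the flow-induced Klf4 (0.77) and Klf2 (0.61), and the mechanosensor gene Piezo1 was lower (-0.39). Of 9 cell cycle genes, 2 were higher, the inhibitors Cdkn1c (2.35) and Cdkn1a (1.46), and 1 lower, Ccnd1 (-0.52), counts near the 14.6% higher and 18.8% lower of all genes.

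Arterial genes and Dach1 parted between aEC-like and capillary rEC-like cells, where Dach1 was the lower in arteries. Of the same 17 arterial genes, 12 were higher and 2 lower in aEC-like cells (median 0.89, with 18.9% of all genes higher and 15.2% lower), with Gja5 at 3.58 higher and Sox7 (-1.0) and Nrp1 (-0.51) lower. Hey2 is counted among the 12, at 6.88 CPM in aEC-like cells and at most 0.921 CPM in any other type. It could pass the filter only through the type in which it is high, so only its levels are given. Of 8 genes of caveolae and lipid handling, 7 were lower in aEC-like cells and 1, Plvap, was higher (2.35). From capillary rEC-like to bmEC-like cells, 12 of 17 arterial genes were lower and 1 higher, and 7 of 8 venous and sinusoidal genes were higher, in a comparison with 34.4% of genes higher and 26.1% lower, with Gpr182 at 4.10 and the lymphatic and sinusoidal receptor gene Flt4 at 2.85.

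In aged capillary rEC-like cells, 9 of 16 arterial genes rose and none fell (median 0.46, with 23.4% of 8446 genes higher and 22.6% lower), among them Notch1 (2.66), Jag2 (2.34) and Jag1 (1.28). The lists were not offset for genomic length, which went with the aged differences as described above. The network had 2 of 3 members higher, Skil (1.56) and Ski (1.48). In aged aEC-like cells, where Dach1 rose most on the log2 scale, 6 of 17 arterial genes were higher and 5 lower (median 0.02, with 28.8% of 11390 genes higher and 29.8% lower). Of 7 genes of chemokines and flow in aged capillary rEC-like cells, 3 rose, Klf4 by 2.63 and Cxcl12 by 0.83 among them. Of 8 venous and sinusoidal genes, 5 fell, with Mrc1 at -2.87 and Aplnr at -2.72, and 1 rose, the ephrin receptor gene Ephb4 (0.43). Of 6 cell cycle genes, 4 were higher and 2 lower, with the inhibitors Cdkn1a (2.97) and Cdkn1b (0.96) and the cyclin genes Ccnd1 (1.86) and Ccnd3 (1.38) higher, and the inhibitor Cdkn1c (-0.55) and Ccnd2 (-0.41) lower. In alendronate aEC-like cells, where Dach1 was also called, 7 of 17 arterial genes rose and 1 fell (median 0.33, with 4.43% of 11390 genes higher and 3.34% lower), such as Gja5 (0.76) and Jag1 (0.65), and 5 of 8 venous and sinusoidal genes fell. Of 8 genes of caveolae and lipid handling, 2 were higher and 3 lower in aged capillary rEC-like cells. In aEC-like cells 1 was higher and 5 were lower in aged mice, and 2 were higher and 3 lower with alendronate.

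Genes whose level over types was most like that of Dach1 were ranked by Pearson's r over 59 sums of a type in a library, each gene centred within its library. Sums of a library share its depth and chemistry, so no p is given. Of 8754 genes, 173 had an r above 0.8, and the median was -0.11. The highest were the tetraspanin gene Tspan13 and the actin-binding Ablim3 (both 0.96), the caveolar coat gene Ptrf and the rEC marker C1qtnf9 (both 0.96), Plcb4 and the drug efflux pump gene Abcb1a (both 0.94), Neat1 and Btg3 (both 0.93), and Hspb1 and Pdlim1 (both 0.92). Tspan13 fell over the same ladder, from 1875 CPM in capillary rEC-like through 662 in Vwf rEC-like, 357 in aEC-like and 146 in mpEC-like to 67.8 CPM in bmEC-like cells. Ablim3 ran from 281 through 53.6, 24.1 and 6.73 to 3.15 CPM. The lowest were Slc29a1 (-0.95), Tspan3 (-0.93), Rrbp1 and Mmp14 (both -0.92) and Ipo11 (-0.91), all higher in the types with little Dach1. Over the adult libraries alone the 10 highest genes had an r of 0.93 to 0.98. The adult sums are part of those that picked these genes, so this is no separate test. Among the listed genes Cav1 had 0.88, Cav2 and Cd36 0.86, Cxcl12 0.81 and Klf4 0.79, and Stab1 had -0.84 and Flt4 -0.82.

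Within a type, cells with a Dach1 UMI were set against cells of the same library and type without one, matched within 1.25-fold for total UMIs. At this depth most cells that express Dach1 can miss it, so a cell without a UMI is not a cell without Dach1, and few differences between the 2 kinds do not show that they are alike. In capillary rEC-like cells few genes passed. Of 6065 genes over 7 libraries, 2 differed in edgeR at an adjusted p under 0.05 (0.033%), whereas 314 had an unadjusted p under 0.05. They were Gm10800, which was higher, and Emp1, an epithelial membrane protein gene, at 106 against 176 CPM (log2 difference -0.72, SE 0.15, edgeR adjusted p = 0.015, lower in 7 of 7 libraries). Neither call was robust to single libraries, as 0 genes were higher without aged replicate 1 or 2 and 0 lower without adult replicate 1, either aged or either alendronate library. Of the type's markers, Timp4 (0.26), C1qtnf9 (0.16), Aqp7 (0.04) and Car4 (-0.10) did not pass. In aged replicate 1 the match was imperfect, with medians of 3665 and 2934 UMIs.

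In Vwf rEC-like cells 15 of 3157 genes differed (0.475%), 8 higher and 7 lower over 5 libraries, those of aged and alendronate mice and PTH replicate 2. Without PTH replicate 2, 16 were higher, without aged replicate 2 or alendronate replicate 1, 5 were higher and 3 lower, and without alendronate replicate 2, 3 were lower. Cells with a Dach1 UMI had more Rgcc (347 against 114 CPM, log2 difference 1.65, edgeR adjusted p = 3.0e-04), more Cxcl12 (1633 against 809 CPM, 1.07, edgeR adjusted p = 2.0e-04), and more Col13a1, Mef2c and Aldh2 (0.82 to 1.32). They had less Tppp3 (107 against 318 CPM, -1.35, edgeR adjusted p = 0.025), Nupr1 (-1.49), Nt5e (-1.38), Lgals1 (-1.26), Crip1 (-0.54) and S100a6 (-0.53). The type's own markers Vwf (-0.14), Tagln (0.13) and Fmo2 (0.38) did not pass.

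The most genes passed in arterial cells, where the tests drew on the same 5 libraries. In aEC-like cells 115 of 4820 genes differed (2.39%), 66 higher (1.37%) and 49 lower (1.02%), of which 53 and 40 had the same direction in each library. Without PTH replicate 2, 42 were higher and 24 lower. DESeq2 called fewer genes in both directions and unmatched cells gave more, as listed at the end. Cells with a Dach1 UMI had more of the rEC markers Aqp7, a glycerol channel gene (63.6 against 9.77 CPM, log2 difference 3.23, edgeR adjusted p = 3.2e-04), and C1qtnf9 (91.7 against 34.3 CPM, 1.28, edgeR adjusted p = 0.0049). Of the other rEC markers, Vwf (-0.47) did not pass, and Timp4, Car4, Tagln and Fmo2 were not among the genes tested. Cells with a Dach1 UMI had more Ifi27l2a, an interferon-induced gene (430 against 64.6 CPM, 3.05, edgeR adjusted p = 6.5e-09), and more Cytl1, Prune2, Auts2, Tppp3, Meox2, Lmo1, Fez1 and Tmem158 (1.56 to 2.19). Tppp3 was higher with a Dach1 UMI here and lower with it in Vwf rEC-like cells.

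They had less of several arterial genes, Gja5 (137 against 282 CPM, -1.17, edgeR adjusted p = 5.9e-04), Gja4 (801 against 1159 CPM, -0.48, edgeR adjusted p = 0.0029), Dll4 (-0.83) and Sox18 (-0.45), and more of the Notch ligand gene Jag1 (0.96). Esm1, a gene of tip cells, was lower (8.24 against 44.4 CPM, -2.29, edgeR adjusted p = 0.017), as were Igfbp3 (719 against 2071 CPM, -1.60, edgeR adjusted p = 1.3e-08), Art3, Olfml2a, Sept4, Mcf2l, Ehd4, Egfl8 and Dbn1 (-1.35 to -0.99). Other arterial markers did not pass, namely Sema3g (0.03), Fbln5 (-0.06), Bmx (-0.14) and Vegfc (-0.15). Cav1 (0.54), Fabp4 (0.29) and Klf4 (0.61) were higher and Plvap (-0.64) and Emcn (-0.46) lower. Of 16 arterial genes tested, 1 was higher and 3 lower, and of 7 of caveolae and lipid handling, 2 were higher and 1 lower. Whether these cells are the Tmem100-led ones was not tested.

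**Figure D5:**
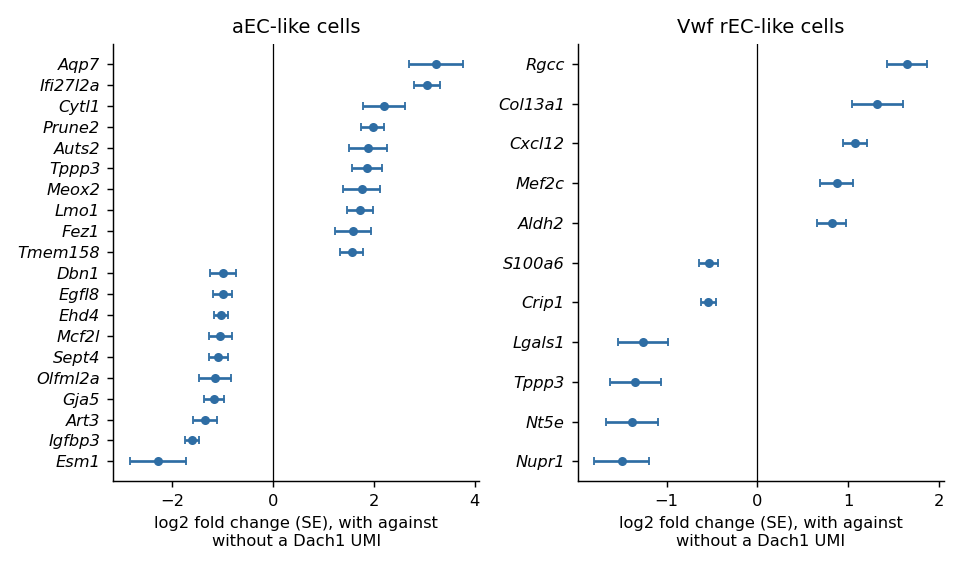
Log2 difference between cells with and without a Dach1 UMI, with SE bars, for the named genes in aEC-like and Vwf rEC-like cells. Aqp7 (3.23) and Ifi27l2a (3.05) lead the aEC-like genes, Esm1 (-2.29) and Igfbp3 (-1.60) close them, and Tppp3 lies on opposite sides in the 2 types.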

How the data were processed

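Libraries of femur and tibia ECs were captured with the 10x Genomics 3′ chemistry. Per the labels, the authors used UMI-tools 1.1.2 to assign each read to a cell barcode, aligned reads to mm10 with STAR 2.7.10a and counted them on genes with featureCounts 2.0.3, and the deposited values are raw UMI counts per gene and cell without normalization. The annotation release and the strand setting are not given in the sources used here, so reads of genes inside the Dach1 span cannot be told apart from it. Groups came from the sample titles.

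Cells with 500 to 6000 genes and under 25% mitochondrial UMIs were kept. With R 4.3.3 and Seurat 5.3.0, clusters of other cells were removed and the 10 libraries integrated by anchors (2000 variable features, 30 components, resolution 0.5), which gave 16 clusters, named from fixed markers. Dach1 and listed genes that are no markers were kept out of the variable features. CPM are counts over the plain total of a sum. Tests used the quasi-likelihood method of edgeR 4.0.16 with TMM factors and filterByExpr on counts summed per type and library (at least 20 cells), the library as a block between types and in interactions, and Benjamini-Hochberg adjustment over all genes tested, with a threshold of 0.05. Cells with and without a Dach1 UMI were matched within 1.25-fold for UMIs. The SE of a log2 difference was taken from the value and its F statistic, and its 95% interval assumes a normal distribution, which is narrow for so few libraries. Simulated data were used to check the main edgeR tests and the thinning, and not the other steps.

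The gene, the markers and the lists were chosen with earlier results of these data known. Named genes are Dach1, the listed genes, the 10 highest and 5 lowest by likeness (mean of at least 10 CPM, log2 of CPM + 1), and the up to 10 largest changes in each direction past the threshold in each test of cells with a Dach1 UMI, with 20 CPM or more and one direction throughout the libraries, and Gm10800 and markers were added after their values were seen. Libraries of 1 group differed by more than sampling noise in each group (chi-square over degrees of freedom 1.70 to 3.23), so none was counted as deposited more than once. Same-numbered libraries had correlations of deviations of -0.015 to 0.046 over 10 pairs, so the numbers were taken not to pair them. The doublet caller (Scrublet in scanpy 1.11.5) marked few cells, and as an alternative the 1840 ECs (4.21%) with the highest scores were removed. Other alternatives were DESeq2 1.42.0, resolutions of 0.3 and 0.8, no integration, marker scores per cell, stricter cells (1000 genes, 10% mitochondrial UMIs), no filter on low counts, the mean over cells, thinning to 2000 UMIs, unmatched cells and each library left out, and, added after seeing the data, the offset for genomic length over 20 classes, leaving out both aged libraries, fixed shares from other clusterings and removing cells with a haematopoietic marker.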

Additional observations from a re-analysis of the deposited data

Results flagged for a closer look

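With PTH, Dach1 values lay on opposite sides of adult in sinusoidal and metaphyseal cells, without a call in either. Both PTH libraries were above both adult ones in bmEC-like cells (log2 ratio of the means 0.84) and below both in mpEC-like cells (-0.99), a gap of 1.83. The mpEC-like value leans on PTH replicate 1, with 1 Dach1 UMI at 0.304 CPM, since PTH replicate 2 at 1.48 CPM was next to adult replicate 2 at 1.49 CPM, and without PTH replicate 1 the edgeR difference was -0.28. The difference was not tested, and it rests on 1 to 14 Dach1 UMIs a library and type. Neither change passed against adult in edgeR.

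Blood cells removed before the comparisons held Dach1 as well. A cluster of 112 cells led by the neutrophil gene S100a9, of which 54 and 51 came from the aged libraries, had 52 Dach1 UMIs at 38 CPM, and a cluster of 675 cells led by Elane and Mpo had 151 at 17.6 CPM, both above the lymphoid cells at 0.822 CPM. After thinning to 1000 UMIs, 2 of 112 and 11 of 668 of these cells had a Dach1 UMI. The summed haematopoietic markers were 350598 CPM in the S100a9-led and 15721 CPM in the Elane-led cells, against 165 to 200 CPM in aged capillary rEC-like cells, whose Dach1 level was 244 to 264 CPM. The part of blood cell RNA in that level was not tested.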

How the results depend on the processing

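Of 345 alternatives of the type pairs 336 kept direction and call, and of 543 of the group comparisons 503 did. Of the type pairs, mpEC-like against pEC-like cells lost its call with marker scores per cell (1.18), no integration (1.87), a resolution of 0.3 (2.05), without both aged libraries (1.83) and without cells with a haematopoietic marker (1.60), and bmEC-like against pEC-like cells turned with marker scores (-0.42). In aged capillary rEC-like cells the value stayed past the threshold in all alternatives, at 0.85 with the length offset and 1.94 as the mean over cells. The aged Vwf rEC-like call was lost with marker scores (0.47), the length offset (0.75) and without cells with a haematopoietic marker (1.20), the aged mpEC-like call with no integration (1.55), and the aged bmEC-like value passed as the mean over cells (0.80) and turned with the offset (-0.18). The alendronate aEC-like call was lost with DESeq2 (1.23), the mean over cells (1.1), no integration (0.88), a resolution of 0.3 (1.20) and without cells with a haematopoietic marker (1.25). In all ECs, PTH passed with stricter cells (0.55) and the juvenile call was lost with no filter on low counts (-0.73). As the mean over cells, juvenile mpEC-like cells passed (1.20). Values that were not called turned in Vwf rEC-like cells with PTH (-0.22 with marker scores, -0.30 without cells with a haematopoietic marker), alendronate (0.047 without the highest doublet scores, 0.015 as the mean over cells, 0.026 with no filter on low counts, 0.067 with stricter cells) and in juvenile mice (-0.16 without cells with a haematopoietic marker). They also turned with alendronate in capillary rEC-like cells (-0.14 with marker scores, -0.17 with stricter cells) and in mpEC-like cells (-0.023 without cells with a haematopoietic marker). The cause was not tested.

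With 1 library left out, log2 values ranged as follows. Between types, mpEC-like against pEC-like cells gave 1.82 to 3.02. In aged mice, mpEC-like cells gave 1.28 to 2.28 and Vwf rEC-like cells 1.14 to 1.59, and alendronate aEC-like cells gave 0.76 to 1.93. In all ECs, juvenile mice gave -1.14 to -0.44 and PTH -0.014 to 0.67. Values not called ran from -0.33 to 0.57 in juvenile capillary rEC-like and, in Vwf rEC-like cells, from -0.32 to 0.64 in juvenile, -0.26 to 0.23 in alendronate and -0.23 to 0.27 in PTH mice. Of the interactions with capillary rEC-like cells, none called, aged against mpEC-like ran from -0.73 to 0.16, alendronate against mpEC-like from -0.61 to 0.0075 and against Vwf rEC-like from -0.060 to 0.35, and juvenile against Vwf rEC-like from -0.21 to 0.17.

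Mean shares of cells with a Dach1 UMI moved without thinning to 22.8% in capillary rEC-like, 9.63% in Vwf rEC-like, 3.23% in aEC-like, 1.32% in mpEC-like and 0.431% in bmEC-like cells, and at 2000 UMIs to 20.4% in capillary rEC-like and 1.91% in aEC-like cells. The difference in share of capillary rEC-like cells from adult turned without thinning with PTH (3.78 percentage points) and in juvenile mice (7.38), and at 2000 UMIs with alendronate (-1.94).

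Of genes that differed in cells with a Dach1 UMI, DESeq2 called 23 higher and 12 lower in aEC-like, 2 and 1 in Vwf rEC-like and 0 and 0 in capillary rEC-like cells, and unmatched cells gave 154 and 212, 34 and 23, and, lower in capillary rEC-like cells, 3. Without the highest doublet scores 15 were higher in Vwf rEC-like cells. With 1 library left out, the counts were 42 to 68 higher and 24 to 49 lower in aEC-like, 5 to 16 and 3 to 9 in Vwf rEC-like and 0 to 1 and 0 to 1 in capillary rEC-like cells.

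With the replicate number as a block, the aged value was 1.59 in capillary rEC-like cells and 2.72 in all ECs, the alendronate value in aEC-like cells 1.19, and no call of Dach1 changed. Groups in bmEC-like cells at a resolution of 0.3, juvenile Vwf rEC-like cells by marker scores and groups in pEC-like cells gave no value, since Dach1 was under the filter or cells were too few. Counts limit the types at the bottom of the order, with 70 Dach1 UMIs in bmEC-like and 127 in mpEC-like cells.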
